A study of Homo sapiens with 6 samples.

Results

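The genes described here are 31 targets and components of the sterol regulatory element-binding protein (SREBP) system, which make cholesterol and fatty acids. They were taken by gene name, from a list drawn up with earlier results of these data known, and they account for 54 of the 38438 transcripts, and 31 of the 19211 named genes, in the deposited mRNA-seq table. The study asked which RNAs the RNA-binding protein LARP1 contacts when mTOR, a growth-controlling kinase, is active or inactive, and mRNA levels were measured alongside. HEK293T cells, which derive from human embryonic kidney and carry the large T antigen of SV40, were grown in medium with serum. They were either left untreated (growing conditions) or treated with PP242, which blocks the mTOR kinase, at 2.5 µM (mTOR-inactive conditions), for a time not given in the sources used here. There were 2 mRNA-seq libraries of each condition, and 1 library of LARP1-bound RNA fragments (PAR-CLIP) of each. For PAR-CLIP only, the cells of both conditions had also taken up 100 µM 4-thiouridine for 14 hr and were irradiated with 150 mJ/cm2 of ultraviolet light.

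SREBPs are transcription factors that are held in the membrane of the endoplasmic reticulum as inactive precursors. When sterols are scarce, the escort protein SCAP carries the precursor to the Golgi, where it is cut and its active part moves to the nucleus, whereas INSIG proteins hold SCAP back when sterols are plentiful. The product of SREBF2 acts mainly on genes of cholesterol synthesis and that of SREBF1 mainly on genes of fatty acid synthesis. The mTOR complex mTORC1 is known to promote SREBP activity in several cell types, and the phosphatidate phosphatase LPIN1 is one of the proteins known to link them. An mRNA level does not show how much of a SREBP precursor has been cut.

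The authors deposited RPKM values, that is reads normalised to transcript length and to the mapped reads of the library, for each of the 4 mRNA-seq libraries. Each library had between 36046 and 36149 transcripts with a value above 0, and the depths of the other libraries were 1.04 to 1.06 times that of the first growing library, as read from the steps between low values. RPKM is relative to the total of a library, so a general rise or fall of mRNA per cell would not be seen. The samples are also bulk, so less RNA of a gene per cell and fewer cells that make it cannot be told apart. Of 6 markers listed for HEK293T cells, 5 were above 1 RPKM. PAX2 was the exception with a mean of 0.123 RPKM, and VIM was the highest with 225 RPKM. Of the 5 tested, 1 was called, beside 12.3% of all genes: VIM rose by 12.8% after PP242 (adjusted p = 0.0070, limma). CDH2 was higher and KRT18 lower after PP242, each without overlap between conditions and without a call. The 6 markers of liver, fat, blood and connective tissue that were in the table had a median of 0.0794 RPKM, and only COL1A1, at 1.80 RPKM, was above 1 RPKM.

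After PP242, 3 of the 31 mRNAs were called by limma, and no role among them had more than 1 called gene. LPIN1 rose by 26.2% and FASN, the fatty acid synthase, by 14.7%, while EBP, a sterol isomerase of cholesterol synthesis, fell by 6.97%. The other 28 genes were not called by limma at an adjusted p of 0.05, and their log2 differences lay between -0.23 and 0.15. The 3 called genes are 9.68% of the 31, beside 12.3% of all 11319 genes tested by their main transcript, the one with the highest mean RPKM. By direction, 2 members rose, beside 3.86% of all genes, and 1 fell, beside 8.47% of all genes. At an unadjusted p under 0.05 there were 10 member genes, 5 in each direction, beside 3595 of all 11319 genes, so these counts are near those of all genes. With 2 libraries per condition, a gene without a call was not shown to be unchanged.

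Of the 54 member transcripts 53 had a mean of at least 1 RPKM and were tested, and a noncoding FADS1 transcript at 0.185 RPKM was not. Limma called 3 of the 53, or 5.66%, beside 9.93% of all 21014 transcripts tested. Of these 2 rose and 1 fell, beside 3.48% and 6.45% of all transcripts. None of the 31 main transcripts passed the minimum through 1 condition only, since the lowest value in any library was 2.12 RPKM, for ACSS2. The median log2 difference of the 31 genes was 0.0098, beside -0.0050 for all genes tested. In total, 24 of the 31 genes (77.4%) differed by less than 0.1 on the log2 scale, beside 70.4% of all genes. A difference above 0 was found for 19 and below 0 for 12, beside 5402 and 5917 of all genes. The libraries of the 2 conditions did not overlap for 19 member genes, 10 with higher and 9 with lower values after PP242. That is 61.3% of the members, beside 59.5% of all genes, of which 27.8% had higher and 31.8% lower values. Over transcripts, 13 members had higher and 16 lower values without overlap (54.7%), beside 28.5% and 30.0% of all transcripts (58.5% in either direction).

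**Figure D1:**
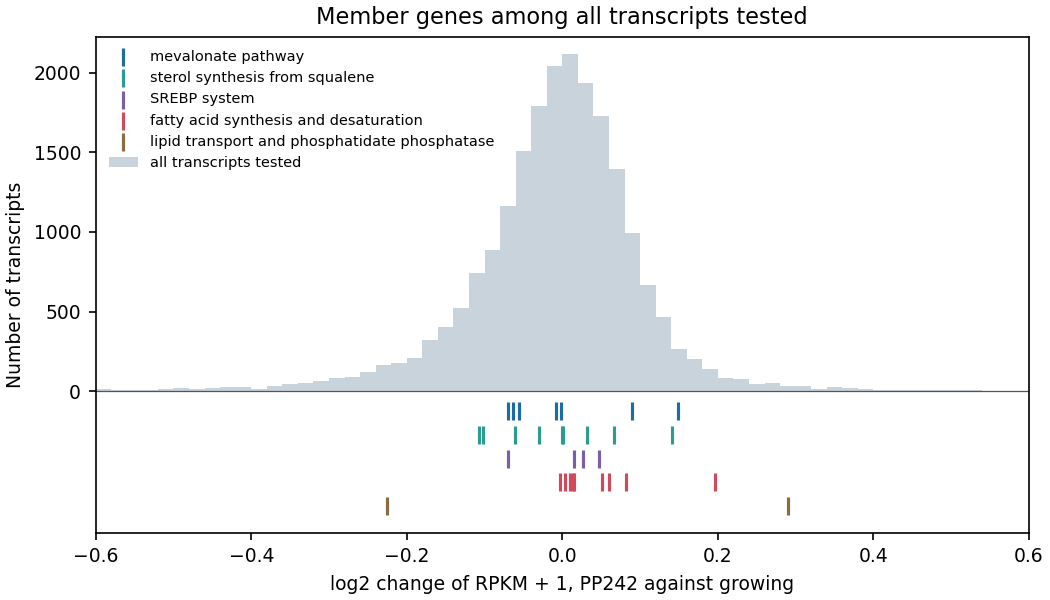
The grey histogram gives the number of transcripts (y axis) at each log2 difference of RPKM + 1 between PP242 and growing conditions (x axis) for the transcripts tested, and coloured ticks below it mark the 31 member genes by role. Most ticks lie in the central peak, with 24 of 31 within 0.1 of 0, and LPIN1 at 0.29 and STARD4 at -0.23 are the outermost ticks.

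The mRNA levels of the members spanned a wide range, with a median of 18.6 RPKM beside 7.39 RPKM for all genes tested. RPKM is a level per transcript length, so the levels of main transcripts can be ranked. The authors divided reads that match several transcripts evenly, so a gene with several like transcripts has its reads split among them. The order below is therefore one of main transcripts and not of gene totals. SCD, the desaturase that puts the first double bond into stearate and palmitate, had the highest main transcript, with a mean of 95.5 RPKM over the 4 libraries. FASN followed with 80.9 RPKM. FDFT1, the squalene synthase, had 60.5 RPKM. ACLY, which splits citrate into the acetyl-CoA used by both pathways, had 60.1 RPKM, and the libraries of ACLY and FDFT1 overlapped. ACLY had another transcript at 59.7 RPKM, whereas SCD, FASN and FDFT1 had 1 tested transcript each, so ACLY may rank higher by gene total. ACAT2 and EBP came next with 51.6 and 48.8 RPKM and also overlapped. Below them came IDI1, then SQLE with 42.3, SREBF2 33.6 and SCAP 28.3 RPKM, and each of these was above the next without overlap. Neighbours in the middle of the order, from FADS1 at 24.0 RPKM to CYP51A1 at 15.4 RPKM, mostly could not be told apart by their libraries. The lowest main transcripts were those of ACACA with 4.37, SREBF1 with 2.78 and ACSS2 with 2.16 RPKM. These genes had 5, 2 and 3 tested transcripts, so they need not be the lowest by gene total.

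**Figure D2:**
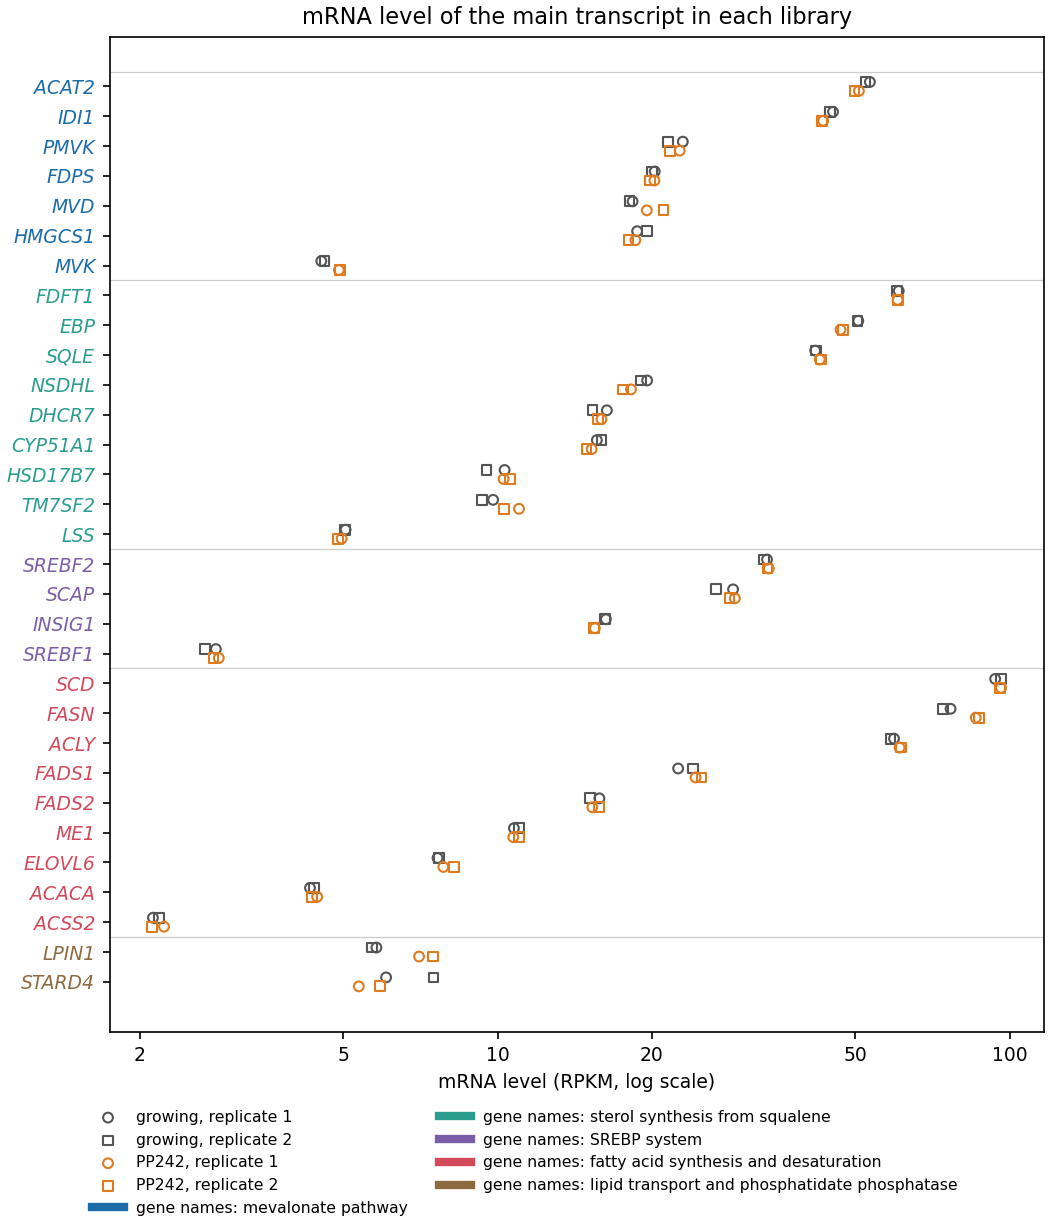
Each row is a member gene and each symbol the RPKM of its main transcript in 1 library (x axis, log scale), with grey for growing and orange for PP242, circles for replicate 1 and squares for replicate 2. Rows are grouped and gene names coloured by role. The spread between main transcripts, from 2.16 RPKM for ACSS2 to 95.5 RPKM for SCD, is far wider than that between conditions within one of them.

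None of the 4 genes that form the SREBP system itself was called, beside 12.3% of all genes. SREBF2 (NM_004599.2, GRCh37 chr22:42229109-42303310, plus strand) had 33.6 and 33.2 RPKM under growing and 33.9 and 33.7 RPKM under mTOR-inactive conditions. The libraries did not overlap, but the log2 difference was 0.02 with a 95% interval from -0.04 to 0.07 and an adjusted p of 0.719 (limma), and it ran from 0.0072 to 0.0238 across the 4 analyses that left out a library. SREBF1 was expressed at a much lower level, with 2.82 and 2.68 RPKM under growing and 2.85 and 2.79 RPKM under mTOR-inactive conditions. Its conditions overlapped, and its interval ran from -0.07 to 0.12. SCAP had 28.8 and 26.7 RPKM under growing and 29.1 and 28.4 RPKM under mTOR-inactive conditions, which overlapped as well. INSIG1, whose product holds SCAP in the endoplasmic reticulum and whose gene is itself a SREBP target, had 16.3 and 16.2 RPKM under growing and 15.5 and 15.4 RPKM under mTOR-inactive conditions. Both PP242 libraries were below both growing libraries, and the log2 difference of -0.07 had an interval from -0.13 to -0.0046. INSIG1 was the only one of these 4 genes with an unadjusted p under 0.05, beside 3595 of all 11319 genes. Its adjusted p was 0.157 (limma).

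A SREBP binds a sterol regulatory element, often beside sites for the partners NF-Y, which recognises CCAAT, and Sp1, which recognises a GC box. RefSeq promoter sequences (GRCh38.p14, 250 bases before to 50 bases after a transcript start) were on hand for 27 of the 31 genes. Those of ACAT2, FASN, FDFT1 and SQLE were missing. A gene, member or expressed, was counted when any of its starts held a motif on either strand. Shares of all promoters count each start on its own, so they are not directly comparable with the shares of genes. The string TCACNCCAC (N is any base), used here for the sterol regulatory element, was found for 1 of 27 genes, SREBF2. It was found for 1.34% of 8227 expressed genes and in 1.13% of all 35116 promoters. Only this string was searched, and only in these promoter stretches, so a gene without a match was not shown to lack such an element. CCAAT was found for 19 (70.4%), beside 43.8% of expressed genes and 34.6% of all promoters. GGGCGG was found for 26 (96.3%), beside 79.3% and 45.0%. The E-box CACGTG, which SREBPs can also bind, was found for 3 genes (INSIG1, LSS and SCAP), or 11.1%, beside 13.3% and 7.26%. Matches of one motif did not overlap those of another in the windows printed here. They show the 1 match to the sterol regulatory element, the E-box of the sterol sensor INSIG1, and the CCAAT match nearest to the start of EBP, the member that fell, and of NSDHL, the member with the most LARP1 reads. Capitals mark the motif (CCAAT reads ATTGG on the other strand), coordinates are those of GRCh38.p14, and the motif begins at position -133, -55, -30 and -84 from the start, in this order.
SREBF2 chr22:41832962-41832991, plus strand: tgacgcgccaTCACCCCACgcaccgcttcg
INSIG1 chr7:155297811-155297840, plus strand: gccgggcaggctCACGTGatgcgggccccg
EBP chrX:48521766-48521795, plus strand: cttcgcttcaccATTGGctcgctccgtaag
NSDHL chrX:152830967-152830996, plus strand: cgccgagctgggCCAATcctcttggtggag

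The 7 genes of the mevalonate pathway, which builds the isoprenoid precursors of sterols from acetyl-CoA, gave 0 calls by limma, beside 12.3% of all genes. Of the 7, 3 had an unadjusted p under 0.05, beside 3595 of all 11319 genes. MVD, which decarboxylates diphosphomevalonate (NM_002461.1, GRCh37 chr16:88718343-88729569, minus strand), came closest. It had 18.4 and 18.1 RPKM under growing and 19.6 and 21.1 RPKM under mTOR-inactive conditions. All PP242 values were above all growing values, the log2 difference was 0.15 ± 0.04 (SE), and the adjusted p was 0.0719 (limma). The PP242 libraries differed from each other more than the growing libraries did, and the value depended on them. Without the first PP242 library the difference was 0.20 and called, with an adjusted p of 0.0403, and without the second it was 0.10 and not called, with an adjusted p of 0.211. Of the 4 analyses that left out a library 1 called it. Such an analysis leaves 1 library in a condition, which is assumed to vary like those of the other condition. It was also called among transcripts of at least 5 RPKM, with an adjusted p of 0.0457. MVK, the mevalonate kinase, had 4.53 and 4.59 RPKM under growing and 4.90 and 4.93 RPKM under mTOR-inactive conditions, again without overlap, and an adjusted p of 0.140.

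The other genes of this pathway had differences below 0 without a call. ACAT2, the cytosolic thiolase that joins acetyl-CoA units, had 53.4 and 52.3 RPKM under growing and 50.8 and 49.8 RPKM under mTOR-inactive conditions, a log2 difference of -0.07 with an adjusted p of 0.138. HMGCS1, which makes HMG-CoA, differed by -0.06 (adjusted p = 0.279) and IDI1, the isomerase that makes dimethylallyl diphosphate, by -0.06 (adjusted p = 0.188). These 3 genes had no overlap between conditions, and HMGCS1 was at -0.03 without the second growing library. The phosphomevalonate kinase PMVK and the farnesyl diphosphate synthase FDPS overlapped between conditions, with intervals from -0.10 to 0.10 and from -0.07 to 0.06. The median log2 difference of the 7 genes was -0.0082.

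Of the 9 genes that turn farnesyl diphosphate into cholesterol, 1 fell and 0 rose, beside 8.47% and 3.86% of all genes. The gene that fell was EBP (NM_006579.2, GRCh37 chrX:48380187-48387104, plus strand), whose product shifts a double bond in the sterol ring. It had 50.6 and 50.4 RPKM under growing and 46.8 and 47.3 RPKM under mTOR-inactive conditions. The gap between conditions was larger than the distance between libraries of one condition, and the log2 difference was -0.10 with a 95% interval from -0.16 to -0.05 and an adjusted p of 0.0479 (limma). This call was close to the threshold, since EBP was called in 4 of 13 alternative analyses and in none of the 4 that left out a library, with adjusted p between 0.0344 and 0.171. Median centring and TMM scaling of the libraries kept its direction but not its call. The log2 difference of EBP ran only from -0.11 to -0.09 across the 13 alternatives. EBP shares exon bases with another protein-coding gene on the same strand in the GENCODE annotation, whose reads could not be told apart where the transcripts match. The overlap was 644 bases summed over the annotated exons of that gene, so a base in several exon versions counts each time. CYP51A1 overlaps other protein-coding genes on its own strand, with 2910 and 2827 bases summed in the same way. Its level and difference therefore have the same limit.

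NSDHL (NM_015922.2, GRCh37 chrX:151999511-152038273, plus strand), a dehydrogenase that takes part in removing methyl groups from sterol precursors, had 19.6 and 19.1 RPKM under growing and 18.2 and 17.5 RPKM under mTOR-inactive conditions. There was no overlap, the log2 difference was -0.11 ± 0.03 (SE), and the adjusted p was 0.0906 (limma). TM7SF2, a sterol reductase (NM_003273.2, GRCh37 chr11:64879317-64883856, plus strand), went the other way, with 9.80 and 9.33 RPKM under growing and 11.0 and 10.3 RPKM under mTOR-inactive conditions. Its log2 difference was 0.14 ± 0.04 (SE) and its adjusted p 0.0953 (limma). In a fit that blocked libraries by replicate number it was called, with an adjusted p of 0.0462 (limma). Leaving out 1 library gave log2 differences of TM7SF2 from 0.10 to 0.19. The remaining members of this branch lay closer to 0. FDFT1, the first enzyme that is committed to sterols, had 60.8 and 60.3 RPKM under growing and 60.5 and 60.6 RPKM under mTOR-inactive conditions, with an interval from -0.05 to 0.05. SQLE, the squalene epoxidase, differed by 0.03, LSS, which closes the sterol rings, by -0.03, and CYP51A1, the lanosterol demethylase, by -0.06, each without overlap and without a call. DHCR7, the reductase of a final step, and HSD17B7 overlapped between conditions. The branch as a whole had a median log2 difference of 0.00017, with 5 genes above 0 and 4 below, beside 5402 and 5917 of all genes.

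**Figure D3:**
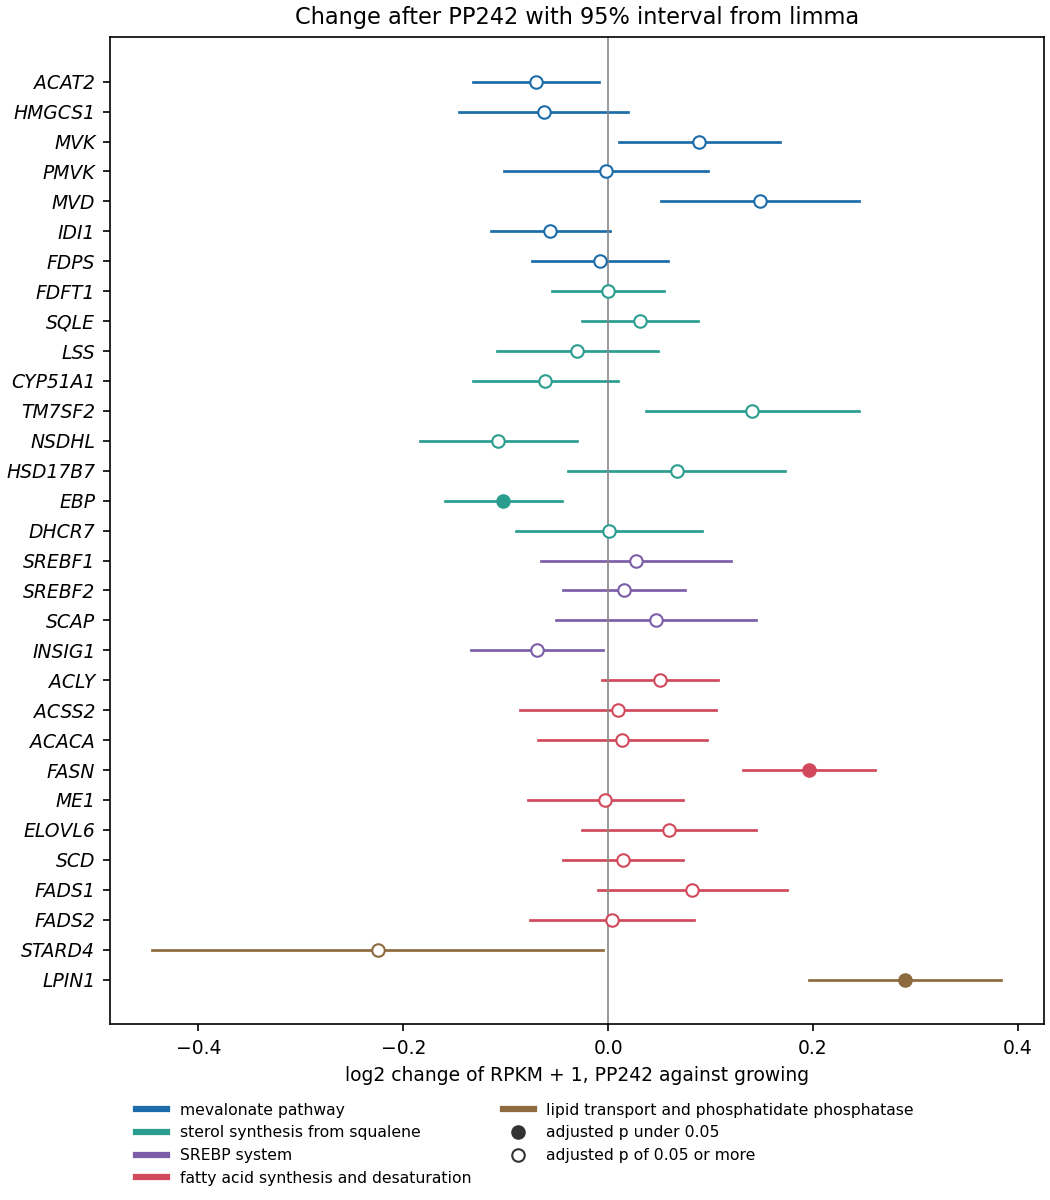
Points give the log2 difference of RPKM + 1 between PP242 and growing conditions for each member gene, and lines its 95% interval from limma, with filled points for an adjusted p under 0.05 and colours for the role. LPIN1 and FASN to the right of 0 and EBP to the left of 0 are filled, and the other 28 points are open.

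Among the 9 genes of fatty acid synthesis and desaturation FASN rose and none fell, beside 3.86% and 8.47% of all genes. FASN (NM_004104.4, GRCh37 chr17:80036214-80056170, minus strand), the multifunctional enzyme that makes palmitate, had 76.7 and 74.1 RPKM under growing and 85.9 and 87.1 RPKM under mTOR-inactive conditions. Both PP242 libraries were above both growing libraries. The log2 difference was 0.20 ± 0.03 (SE), with an adjusted p of 0.0108 (limma), and it was called in 12 of 13 alternatives, all but the one without a filter on low RPKM. ACLY, which supplies acetyl-CoA, had 59.5 and 58.6 RPKM under growing and 61.0 and 61.4 RPKM under mTOR-inactive conditions, a log2 difference of 0.05 with an adjusted p of 0.216. ELOVL6, an elongase of palmitate, and FADS1, a desaturase of polyunsaturated fatty acids, also had higher values in both PP242 libraries, with log2 differences of 0.06 and 0.08 and adjusted p of 0.314 and 0.220. Leaving out 1 library gave values from 0.03 (without the second PP242 library) to 0.09 (without the first) for ELOVL6, and from 0.04 (without the first growing library) to 0.13 (without the second) for FADS1. FASN, ACLY, ELOVL6 and FADS1 were the 4 genes of this role without overlap, all with higher values after PP242, beside 27.8% of all genes with such a pattern in that direction.

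The other 5 genes of the role overlapped between conditions. SCD had 93.7 and 96.4 RPKM under growing and 96.3 and 95.8 RPKM under mTOR-inactive conditions, and its interval ran from -0.04 to 0.07. ACACA, the carboxylase that makes the malonyl-CoA used by FASN, had 4.30 and 4.38 RPKM under growing and 4.44 and 4.35 RPKM under mTOR-inactive conditions, with an interval from -0.07 to 0.10. The acetyl-CoA synthetase ACSS2, the malic enzyme ME1, a source of NADPH, and the desaturase FADS2 differed by 0.01 or less. The median log2 difference of the 9 genes was 0.0148, with 8 above 0 and 1 below, beside 5402 and 5917 of all genes.

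LPIN1 (NM_145693.1, GRCh37 chr2:11817721-11967535, plus strand), which dephosphorylates phosphatidate to diacylglycerol, had the largest difference of all 31 genes. It had 5.80 and 5.69 RPKM under growing and 7.02 and 7.48 RPKM under mTOR-inactive conditions. Both PP242 libraries were well above both growing libraries. The log2 difference was 0.29 ± 0.04 (SE), with a 95% interval from 0.20 to 0.38 and an adjusted p of 0.0104 (limma), and it was called in 12 of 13 alternatives and in all 4 that left out a library. By size, LPIN1 ranked 204 and FASN 500 among the differences above 0 of the 21014 transcripts tested. STARD4, a carrier of cholesterol between membranes (NM_139164.1, GRCh37 chr5:110831731-110848288, minus strand), had 6.06 and 7.49 RPKM under growing and 5.36 and 5.90 RPKM under mTOR-inactive conditions. These values did not overlap, and a fit that blocked libraries by replicate number called the gene. However, the 2 growing libraries lay further apart than those of most members. In the main fit the log2 difference of -0.23 ± 0.09 (SE) had an adjusted p of 0.172 (limma). Without the first growing library, that is against the single growing value of 7.49 RPKM, it was -0.36 and called (adjusted p = 0.0421). Only 1 of the 4 analyses that left out a library called it, and across the 4 analyses that left out a library it ran from -0.36 to -0.09, the latter without the second growing library.

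**Figure D4:**
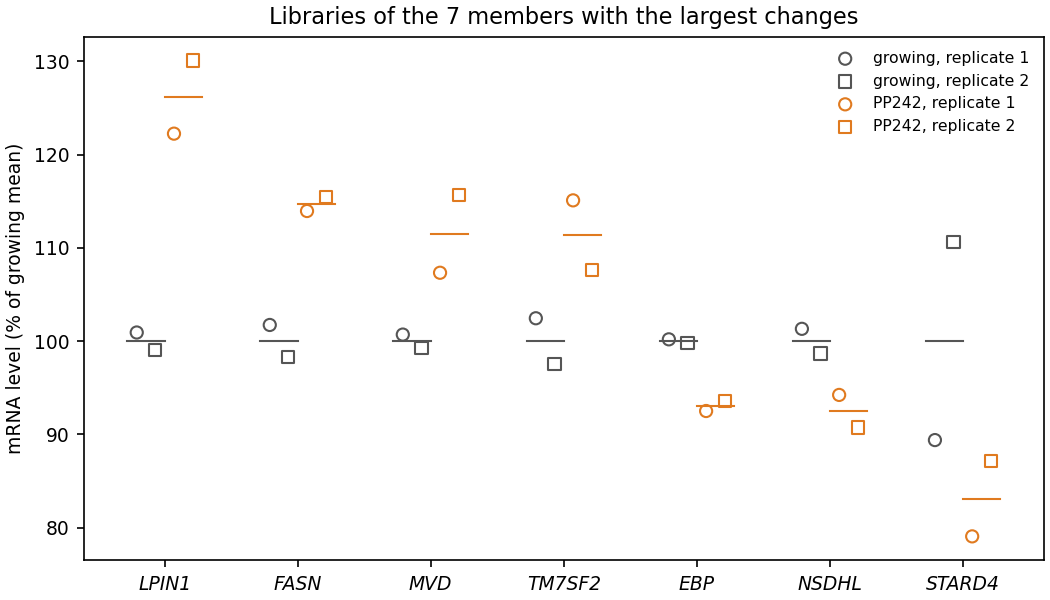
For the 7 member genes beyond 0.1 on the log2 scale, symbols give the RPKM of each library as a percentage of the gene's mean under growing conditions (y axis, which does not start at 0), and horizontal lines the mean of each condition. The PP242 libraries of LPIN1 lie at 122% and 130.1% and those of FASN at 114% and 115%, whereas the 2 growing libraries of STARD4 lie at 89.4% and 111%.

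Transcripts of one gene gave like values. For 13 members more than 1 transcript was tested, and for 11 of them all transcripts had the same sign, with ACSS2 and DHCR7 as the exceptions near 0. The largest range of log2 differences within a gene was 0.034, for INSIG1. Isoforms share most of their sequence and the authors divided reads that match several places evenly, so these values are not independent of each other. Several members overlap a gene on the opposite strand, such as MVK with MMAB and FADS1 with FADS2. Summed over annotated exons, with a base in several exon versions counted each time, these overlaps were 1291 and 930 bases. The libraries were strand-specific by the labels, and whether the counting used the strand is not given in the sources used here. FDPS and HSD17B7 have near-identical pseudogene copies, so their levels are less certain.

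Other genes of the same pathways were taken from 5 lists written by hand, with 78 genes in the table and 71 tested. Limma called 6 of them (8.45%), 2 higher and 4 lower, beside 12.3% of all genes (3.86% higher and 8.47% lower), and the median log2 difference was -0.00044. The 9 further genes of sterol synthesis included the largest fall, that of MSMO1 (NM_006745.4), a monooxygenase that acts with NSDHL in the removal of methyl groups. MSMO1 had 11.3 and 11.3 RPKM under growing and 9.25 and 8.93 RPKM under mTOR-inactive conditions. All libraries of one condition were apart from those of the other, the log2 difference was -0.29 ± 0.03 (SE), the adjusted p was 0.0060 (limma), and all 4 analyses that left out a library called it. The other 8 genes of that list were not called, and its median was -0.0049.

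Of 24 further tested genes of fatty acid synthesis, elongation and activation, 2 rose and 2 fell (16.7%, beside 12.3% of all genes), with a median of -0.0140. ACACB, the mitochondrial relative of ACACA, had 2.22 and 2.20 RPKM under growing and 2.64 and 2.86 RPKM under mTOR-inactive conditions (adjusted p = 0.0294, limma). PTPLA, a dehydratase of fatty acid elongation, had 3.65 and 3.81 RPKM under growing and 4.23 and 4.51 RPKM under mTOR-inactive conditions (adjusted p = 0.0482, limma), and it was called in none of the 4 analyses that left out a library. MID1IP1, a cofactor that promotes polymerisation of acetyl-CoA carboxylase, fell from 10.2 and 9.56 RPKM to 8.40 and 8.07 RPKM (adjusted p = 0.0225, limma). ELOVL4, an elongase of very long chains, fell from 6.16 and 6.56 RPKM to 5.16 and 5.60 RPKM (adjusted p = 0.0494, limma). ACACB and ELOVL4 were each called in 1 of the 4 analyses that left out a library, and MID1IP1 in 2.

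Among 9 tested genes of sterol uptake, storage and efflux, MYLIP fell and none rose, beside 8.47% and 3.86% of all genes. MYLIP, a ubiquitin ligase that targets lipoprotein receptors, had 4.18 and 4.15 RPKM under growing and 3.53 and 3.31 RPKM under mTOR-inactive conditions, without overlap (adjusted p = 0.0235, limma). It was called in 1 of the 4 analyses that left out a library. The 7 other regulators of SREBP processing gave 0 calls by limma, with 2 at an unadjusted p under 0.05 and a smallest adjusted p of 0.119. Fatty acid oxidation, the opposite pathway, also gave 0 calls by limma among 22 tested genes, with 2 at an unadjusted p under 0.05, a smallest adjusted p of 0.118 and a median of 0.0219. Over all 11319 genes 12.3% were called and 3595 had an unadjusted p under 0.05.

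LARP1 sites were listed on 3 of the 31 mRNAs in at least 1 library. In PAR-CLIP, incorporated 4-thiouridine crosslinks to the bound protein and is read as a T-to-C conversion, and the authors deposited for each condition a list of binding sites with the reads of each site scaled to the library's mapped reads (RPM). There was 1 library per condition, so differences between conditions have no replicate check. No site was listed on 28 of the 31 members in either library, and none lay in the 5’UTR of a member. Shares of all genes are given below for each condition. None is given for 5’UTR sites, so their absence is not read as particular to the members. Under growing conditions sites were listed on 2 members, NSDHL and FDPS, beside 10.2% of the 11319 expressed genes. Under mTOR-inactive conditions they were listed on 1 member, ELOVL6, beside 11.2% of expressed genes. Counts this small are not read as a lower share than that of all genes. With a minimum of 1 RPM, NSDHL alone remained under growing conditions, beside 1.78% of genes, and 0 members under mTOR-inactive conditions, beside 3.91%. A minimum of 0.1 RPM left the same members, beside 2.34% and 5.22% of genes. The reads per library are not known from these lists, so a gene that is not listed was not shown to be unbound. The authors also mention a minimum RPM derived from the data, whose value is not given in the sources used here. The lists reach down to very low RPM, with a median of 0.0052 under growing and 0.0173 under mTOR-inactive conditions, so a listed site need not have passed that minimum.

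The NSDHL site was in the coding sequence, at nt 240–263 of NM_015922.2 and nt 307–330 of NM_001129765.1, and is 24 nt long. It had 2319 RPM under growing conditions, on an mRNA of 19.3 RPKM, and ranked 76 by RPM among the 3948 listed sites. No site was listed on NSDHL in the library from PP242-treated cells, in which its mRNA had a mean of 17.9 RPKM. The same RPM was listed on 0 other genes. The deposited T-to-C column, whose unit the sources do not describe, was 198 at this site, or 0.0854 per RPM. The median over the 677 growing sites of at least 1 RPM was 13.5 per RPM, and 25.8% of those sites had a lower ratio than NSDHL.

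The other listed sites had very low RPM but higher T-to-C ratios than the NSDHL site. FDPS had a site of 13 nt in the 3’UTR with 0.0006 RPM on 4 transcripts under growing conditions, and the same RPM was listed on 23 other genes. Its T-to-C column was 27.8 per RPM, and 99.7% of the growing sites of at least 1 RPM had a lower ratio. ELOVL6 had a site of 15 nt in the 3’UTR with 0.0025 RPM on 2 transcripts under mTOR-inactive conditions, and the same RPM was listed on 17 other genes. Its T-to-C column was 28.6 per RPM, beside a median of 28.3 for the PP242 sites of at least 1 RPM, of which 99.0% had a lower ratio. RPM values this low are listed with few digits, so both ratios are approximate. None of the 3 genes called by limma, LPIN1, FASN and EBP, had a listed site in either library. Sites were listed on 10.2% of expressed genes under growing and 11.2% under mTOR-inactive conditions, so 3 genes are too few to read this as a result.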

How the data were processed

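Bowtie was used by the authors to align linker-trimmed reads to GRCh37 transcripts. For mRNA-seq they kept perfect matches, divided reads that match several loci evenly, and deposited RPKM per transcript and library. For PAR-CLIP they clustered reads, required at least 1 T-to-C read in a cluster, and deposited reads per site as RPM. The deposited T-to-C column is not described in the methods and was taken as a score. The authors' mean RPKM columns were not tested, and their RPKM per transcript in the site lists was used only to describe sites.

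The mRNA-seq table holds 39711 lines, and 1273 repeated lines were dropped. Members were matched by the table's gene names. Of 5989 unnamed transcripts 1 is FDPS by accession and was not counted. The log2(RPKM + 1) values of the 21014 transcripts whose mean reached 1 RPKM were fitted in R 4.3.3 by limma 3.58.1 (lmFit, then eBayes with trend = TRUE). Tests were two-sided, p-values were adjusted over all of these transcripts by the method of Benjamini and Hochberg, and the threshold was 0.05. Log2 differences on this scale understate changes of low transcripts. No count test was used, since RPKM are not counts, and the depth in reads is unknown. The 2 libraries of a condition are called biological duplicates, and the authors describe the mRNA-seq as done in parallel with PAR-CLIP. Nothing says whether the 2 libraries came from separate cultures, so p-values measure the spread between these libraries. An exact permutation test of 2 against 2 cannot give a two-sided p below 0.333.

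Alternatives were other pseudocounts (0.1 and 0.5), no filter or at least 5 RPKM, median centring, TMM factors, a replicate block, no trend, leaving out each library, sums per gene, minimum RPM values of 0.1 and 1, and distinct sites counted once per gene. The fit was first tested on simulated data. Every member is described by its main transcript. Of the other lists, up to 3 called genes per list and direction are named. The members, lists and tests were chosen with earlier results of these data known. Overlaps of genes come from GENCODE on GRCh37. Other steps used Python 3.11.15, numpy 2.4.6, pandas 2.3.3 and matplotlib 3.10.9.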

Additional observations from a re-analysis of the deposited data

How the results depend on the processing

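Across the 13 alternative analyses of the mRNA levels, 25 of the 28 members that were not called stayed uncalled in each, 3 (MVD, TM7SF2 and STARD4) were called under at least 1 of them, and 22 of the 31 members kept their sign in each that gave a value. LPIN1 and FASN lost their call only without a filter on RPKM, where 120 of 38438 transcripts were called in place of 2087 of 21014, and adjusted p were 0.0864 and 0.0841. In that setting 0 member transcripts and 0 member genes were called higher or lower, and 0 genes of the 5 other lists in either direction. The call of EBP was lost with median centring, TMM scaling and without a trend, which left 0 member transcripts and 0 member genes called lower. Leaving out each library in turn left 0 to 1 member genes and 0 to 1 member transcripts called lower, 0 to 1 genes of the other lists higher and 2 to 3 lower, and gave medians between -0.0313 and 0.0056 for sterol synthesis from squalene. Without the first growing library the member called lower was STARD4 and not EBP. The number of genes of the other lists called higher was 1 without a trend and 1 with sums per gene. It was 0 with a minimum of 5 RPKM, where ACACB and PTPLA lie below the minimum and were not tested. With the minimum of 5 RPKM the median of fatty acid synthesis and desaturation was 0.0508, that of the mevalonate pathway -0.0322 and that of all members 0.0022, with fewer genes tested. The cause of the other shifts was not tested.

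Same-numbered libraries had a correlation of deviations of 0.0401, and the labels do not say that a number marks a shared culture or day, so the libraries were not treated as pairs. With the replicate block, 3 member genes were called higher and 1 lower, and 5 genes of the other lists lower, with 2135 calls over all transcripts. TM7SF2 (adjusted p = 0.0462) and STARD4 (adjusted p = 0.0433) gained a call under the block and EBP lost it (adjusted p = 0.0518). Between conditions, 2 libraries each limit all of these tests.

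For LARP1 sites, 1 member gene and 2 lines of the list remained under growing conditions with a minimum of 0.1 or 1 RPM, and 0 genes and 0 lines under mTOR-inactive conditions, in place of 2 genes with 6 lines and 1 gene with 2 lines. Counting each distinct value once per gene gave 2 sites in the growing library and 1 in the PP242 library.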
